A study of Homo sapiens with 4 samples.

Results

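The transcripts described here encode 10 transcription factors of the immediate early response, namely the FOS proteins FOS, FOSB, FOSL1 and FOSL2, the JUN proteins JUN, JUNB and JUND, the stress factor ATF3, the zinc finger factor EGR1 and the serum response factor SRF. They were taken as the transcript clusters whose only gene symbol is that of a member, and each gene had 1 such cluster, so that 10 of the 22411 genes with a named cluster were followed. HCT116 is an established human colon cancer cell line. All cells had been transfected with siRNA at 50 nM by Lipofectamine RNAiMAX and were collected after 48 h, for 2 arrays with a control siRNA, written si(-) in the labels, and for 2 arrays with an siRNA against CDK8, the kinase of the Mediator complex. The labels name no stimulus besides the transfection. They give neither siRNA sequence nor a further CDK8 siRNA, so effects of losing CDK8 and other effects of that siRNA cannot be told apart, and they do not say whether the arrays called biological replicates came from separate days. The p-values therefore rest on array-to-array spread that may be technical.

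Immediate early genes are transcribed within minutes of a growth or stress signal, without the need for new protein. MAP kinases act on SRF and its ELK cofactors and on CREB at their promoters, and the encoded FOS and JUN proteins pair through leucine zippers as AP-1, which then binds the control regions of genes of proliferation, migration and inflammation. In HCT116 cells CDK8 has been described as a positive regulator of this response when serum is added, which is the background to looking at these genes after its knockdown.

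All values are log2 signals of Affymetrix whole-transcriptome arrays after RMA, the array-wide background correction, normalization and probe summary that the authors applied. As the check of the siRNA, CDK8 measured 9.99 and 10.04 in control cells and 7.25 and 7.45 in treated cells, a 6.34-fold fall (-2.67 ± 0.09 log2, difference ± SE, adjusted p = 4.43e-05). Differences are treated (CDK8 siRNA) minus control from limma with n = 2 per group, numbered below as control array 1 and 2 and treated array 1 and 2 after their replicate numbers. The adjusted p is limma's, after Benjamini and Hochberg, over the 13956 genes whose mean signal reached 4.28. A gene is called higher or lower where that value is under 0.05. Of 9 colon epithelial markers EPCAM, KRT8, KRT18 and CDH1 passed the filter, whereas CDX2, VIL1, CDX1, LGR5 and KRT20 lay under it. The epithelial adhesion gene CDH1 went from 7.02 and 7.28 to 10.06 and 9.90 (7.11-fold, 2.83 ± 0.11, adjusted p = 6.10e-05), a larger difference than that of any member below, and EPCAM was higher (0.65 ± 0.08, adjusted p = 0.00118). KRT18 was lower (-0.34 ± 0.09, adjusted p = 0.0304), a call lost on dropping any 1 array, and KRT8 was not called. The summed signal of the 9 was 13.95 to 13.98 (log2) on control arrays and 14.15 to 14.31 on treated arrays. The summed signal of 7 blood cell markers was 7.52 to 7.65 (log2) on control arrays and 8.44 to 8.58 on CDK8 siRNA arrays, and 2 of the 7 passed the filter, CD68, which was higher (1.36 ± 0.11, adjusted p = 3.39e-04), and NKG7. The leukocyte markers PTPRC at 3.41 to 3.53 and CD14 at 3.14 to 3.22 lay under the filter level on all arrays, as did LYZ and ITGAM, while CD3E measured 3.96 and 4.15 on control and 4.13 and 4.65 on treated arrays, above that level on 1 of the 4. The corresponding sums were 6.66 to 6.69 and 6.85 to 6.88 for 7 fibroblast markers and 6.91 to 6.94 and about 7.07 for 7 endothelial markers, with 1 and 2 tested, of which COL1A1 (0.26 ± 0.07) and ESAM (0.28 ± 0.07) were higher. The sample titles name HCT116 cells alone, and these marker signals do not by themselves show that other cell types were present. The part of the marker changes, epithelial or other, in the differences below was not tested. In bulk RNA a change in the number of expressing cells and a change in RNA per cell cannot be told apart.

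All 10 genes passed the filter. With CDK8 siRNA 7 were higher, EGR1 was lower, and FOSL1 and JUND did not pass. Calls were common in this comparison, with 49.5% of tested genes called, 23.1% higher and 26.4% lower. The median difference was 0.66 over the 10 genes and 0.005 over all tested genes. Called rises of at least 2-fold were found for 4 of the 10, ATF3, JUNB, JUN and FOSL2, against 5.11% of tested genes. The 2 groups of arrays did not overlap in 9 of the 10, FOSL1 being the exception, against 74.7% of tested genes. The 10 genes were chosen with earlier results of these data known, so these shares carry no test of the set. With 2 arrays against 2 an exact permutation test of a single gene cannot go below p = 0.333, so the calls rest on the spread that limma pools across genes.

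**Figure D1:**
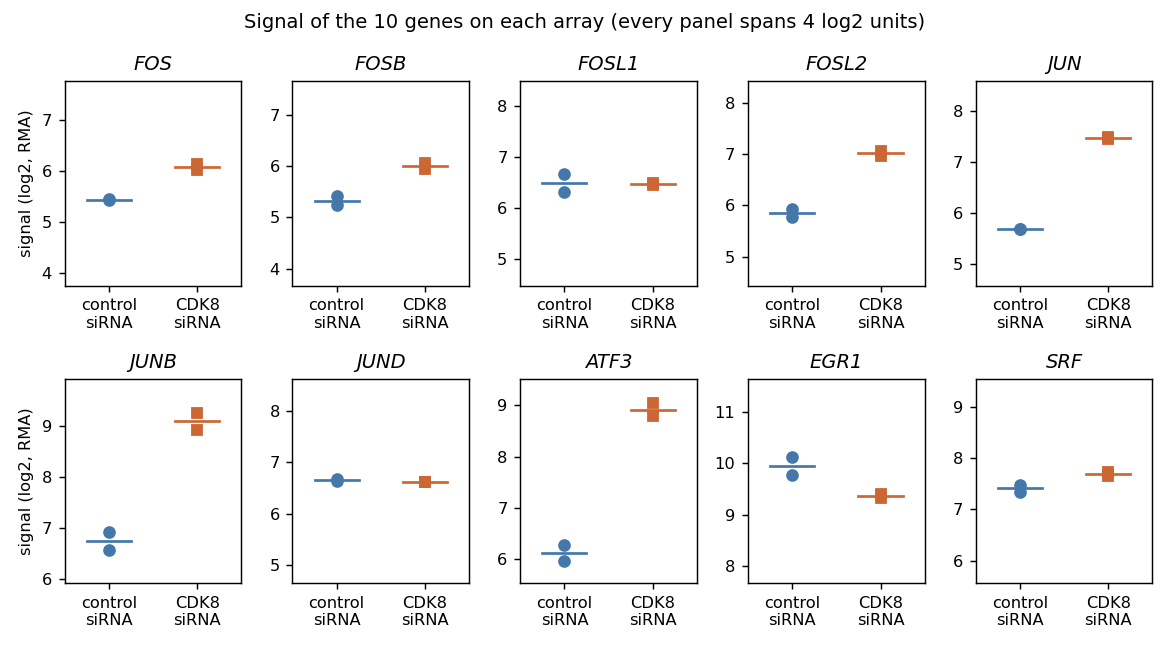
Log2 signal of each gene on each array, circles for the 2 control siRNA arrays and squares for the 2 CDK8 siRNA arrays, with a line at each group mean; every panel spans 4 log2 units. ATF3 and JUNB show the widest gaps of these genes, the group means of FOSL1 and JUND lie at nearly 1 level, and EGR1 is lower with CDK8 siRNA.

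JUN, the founding member of AP-1 and a substrate of the JNK kinases, measured 5.70 and 5.69 in control cells and 7.45 and 7.49 in treated cells. Both treated arrays stood well above both controls, and the arrays of a group differed by at most 0.04. The rise was 3.42-fold (1.78 ± 0.07, adjusted p = 5.58e-05). JUNB, which forms AP-1 dimers of weaker activity on many sites and can restrain JUN, measured 6.93 and 6.58 on the controls and 9.26 and 8.92 after CDK8 siRNA. Its replicates were more spread than those of JUN, but the lower treated array was still far above the higher control. It rose 5.05-fold (2.34 ± 0.16, adjusted p = 2.19e-04), and 62 tested genes had a larger positive difference. JUND, the JUN protein that many cells make without stimulation, measured 6.67 and 6.64 on the controls and 6.61 and 6.62 on the treated arrays. The groups were separated by only 0.02, and its difference of -0.04 had a 95% interval of -0.21 to 0.13 (adjusted p = 0.670). The intervals of JUN (1.60 to 1.95) and JUNB (1.93 to 2.74) lay wholly above that of JUND; the differences between the paralogs were not tested themselves.

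The promoters of the JUN genes are shown because they are the regions through which immediate early signals are known to act, and because JUN and JUNB rose while JUND did not pass the test. Each window runs from 250 bases before to 50 bases after the start site annotated by RefSeq on GRCh38.p14, in the direction of the gene. Capitals mark the letters TGANTCA (AP-1 site), TGANNTCA (ATF/CREB site), TGACG (the core of a cyclic AMP response element, CRE, which overlaps the ATF/CREB site in some matches), GCGNGGGCG (EGR site) and the CArG box bound by SRF, searched on both strands. JUN lies at chr1:58783998-58784297 (minus strand) and JUNB at chr19:12791236-12791535 (plus strand).
JUN: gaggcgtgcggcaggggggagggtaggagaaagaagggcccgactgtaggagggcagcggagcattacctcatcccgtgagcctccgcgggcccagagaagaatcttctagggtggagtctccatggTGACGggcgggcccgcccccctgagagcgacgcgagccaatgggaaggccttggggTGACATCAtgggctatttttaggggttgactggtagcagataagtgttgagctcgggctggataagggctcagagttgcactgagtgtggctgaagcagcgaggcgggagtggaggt
JUNB: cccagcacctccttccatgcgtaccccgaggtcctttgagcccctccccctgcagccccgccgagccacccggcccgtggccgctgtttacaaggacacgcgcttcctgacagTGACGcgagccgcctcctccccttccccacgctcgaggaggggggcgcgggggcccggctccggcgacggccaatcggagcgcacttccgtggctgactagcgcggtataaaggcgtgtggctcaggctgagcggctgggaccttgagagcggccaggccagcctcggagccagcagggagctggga
The JUN window held the ATF/CREB-type match TGACATCA 67 to 60 bases before the start, and a separate TGACG further upstream. JUNB held 1 TGACG match, 137 to 133 bases before the start. The JUND window (chr19:18281573-18281872, minus strand) held TGACGTCA 200 to 193 bases before its start and TGAGCTCA 54 to 47 bases before it. It also held a separate TGACG on the opposite strand, 86 to 82 bases before the start. Of the 35116 RefSeq promoter windows of this length 11.5% held an ATF/CREB site and 24.6% a TGACG. A match describes the letters in the window and does not show that a factor binds.

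ATF3, a bZIP factor of the ATF/CREB family that is induced by many stresses and can pair with JUN proteins, had the largest difference of the 10 genes. It measured 6.28 and 5.97 in control cells and 8.79 and 9.05 in treated cells. The treated arrays were more than 2 log2 units above either control. The rise was 6.94-fold (2.80 ± 0.14, adjusted p = 8.91e-05), and 30 of the 13956 tested genes had a larger positive difference. RefSeq lists 2 start windows for ATF3 in the table used here, at chr1:212565157-212565456 and chr1:212614768-212615067, and the first held the same TGACATCA as JUN, 123 to 116 bases before the start. The transcript cluster does not tell transcripts from different starts apart.

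The FOS proteins pair with JUN proteins but not stably with each other. FOS, whose transcript is the classical short-lived product of the response, measured 5.44 and 5.43 on the controls and 6.13 and 6.02 after CDK8 siRNA. The treated arrays were both higher, and the controls were nearly identical. FOS rose 1.56-fold (0.64 ± 0.08, adjusted p = 0.00127). FOSB, a close relative with an activation domain like that of FOS, measured 5.41 and 5.25 on the controls and 6.06 and 5.94 on the treated arrays. It was 1.59-fold higher (0.67 ± 0.09, adjusted p = 0.00210), and the groups did not overlap. FOSB narrowly missed the threshold on dropping control array 2 (0.59, adjusted p = 0.0516) or treated array 1 (0.61, adjusted p = 0.0513). FOS and FOSB stood at the percentiles 32.1 and 30.7 of mean signal among tested genes. RMA can compress fold changes at low signal, and whether it did so here was not tested. The control means were 5.435 for FOS and 5.33 for FOSB, against 5.695 for JUN and 5.845 for FOSL2, which had larger differences.

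FOSL2 and FOSL1 encode FRA-2 and FRA-1, which lack the strong activation domain of FOS and appear later in the response. FOSL2 measured 5.92 and 5.77 on the controls and 7.06 and 6.97 on the treated arrays. Every treated array was about 1 log2 unit above the controls, and the rise was 2.25-fold (1.17 ± 0.09, adjusted p = 2.59e-04). FOSL1, a known target of ERK signalling and of AP-1 itself, measured 6.66 and 6.32 on the controls and 6.46 and 6.49 on the treated arrays. Both treated values lay between the controls, and the difference was -0.015 with a 95% interval of -0.32 to 0.29 (adjusted p = 0.931). On dropping control array 1 its value turned to 0.155 (adjusted p = 0.229). The FOS window, at chr14:75278578-75278877 (plus strand), is shown as the best studied promoter of the family, with capitals as above.
FOS: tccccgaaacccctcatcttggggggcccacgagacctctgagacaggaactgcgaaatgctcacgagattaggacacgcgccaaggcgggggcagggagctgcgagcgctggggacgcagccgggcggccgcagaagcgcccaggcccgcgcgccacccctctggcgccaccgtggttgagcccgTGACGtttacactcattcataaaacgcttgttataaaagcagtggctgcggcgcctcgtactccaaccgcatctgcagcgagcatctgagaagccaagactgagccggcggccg
Its single match was the TGACG 64 to 60 bases before the start, the position of the known CRE of this promoter. The well-studied SRF site of FOS lies further upstream than the window. FOSB held TGACG 60 to 56 bases before its start, and FOSL2 held TGACG 66 to 62 bases before its start and again further upstream, with a full AP-1 site, TGACTCA, 5 to 11 bases after it. FOSL2 was the only one of the 9 members with a window that held an AP-1 site, which 7.71% of all windows held. FOSL1 is named without a window.

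EGR1, the zinc finger factor induced together with FOS, went the other way. It measured 9.78 and 10.12 in control cells and 9.32 and 9.40 in treated cells. Both treated arrays were below both controls, but the controls differed from each other by 0.34. EGR1 fell 1.51-fold (-0.59 ± 0.12, adjusted p = 0.0109). EGR1 did not pass on dropping control array 2 (-0.42, adjusted p = 0.0659), treated array 1 (-0.55, adjusted p = 0.150) or treated array 2 (-0.63, adjusted p = 0.122), and it passed on dropping control array 1 (-0.76, adjusted p = 0.0324). The value stayed negative in each of these.

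SRF, the MADS-box factor that binds CArG boxes with ELK or MRTF cofactors, measured 7.34 and 7.48 on the controls and 7.73 and 7.66 on the treated arrays. The treated arrays were both higher, but the gap of 0.18 between the groups was not much wider than the 0.14 between the controls. SRF was 1.22-fold higher (0.29 ± 0.08, adjusted p = 0.0332). It no longer passed once a single array was dropped, whether control array 1 (adjusted p = 0.165) or 2 (adjusted p = 0.0798) or treated array 1 (adjusted p = 0.163) or 2 (adjusted p = 0.113). Median centring of the arrays (0.21, adjusted p = 0.0807) and the replicate number as a block (adjusted p = 0.0837) also ended the call.

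EGR1 and SRF were the members whose windows held CArG boxes, a match present in 1.29% of all windows, and they are printed to show them. EGR1 lies at chr5:138465229-138465528 and SRF at chr6:43171019-43171318, both on the plus strand.
EGR1: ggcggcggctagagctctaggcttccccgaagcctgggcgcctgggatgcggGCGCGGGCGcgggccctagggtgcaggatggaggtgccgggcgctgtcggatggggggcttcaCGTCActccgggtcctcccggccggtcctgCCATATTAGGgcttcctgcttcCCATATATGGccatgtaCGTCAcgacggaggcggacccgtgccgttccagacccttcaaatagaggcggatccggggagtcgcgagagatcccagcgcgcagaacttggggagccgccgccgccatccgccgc
SRF: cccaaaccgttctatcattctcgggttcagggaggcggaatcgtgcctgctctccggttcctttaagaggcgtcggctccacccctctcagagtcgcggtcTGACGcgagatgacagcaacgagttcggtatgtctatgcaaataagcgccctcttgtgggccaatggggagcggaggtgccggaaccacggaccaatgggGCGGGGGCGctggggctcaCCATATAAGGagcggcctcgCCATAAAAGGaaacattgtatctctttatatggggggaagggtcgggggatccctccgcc
EGR1 held CCATATTAGG 105 to 96 bases and CCATATATGG 83 to 74 bases before the start, 2 TGACG matches on the opposite strand and an EGR site. SRF held CCATATAAGG 30 to 21 bases and CCATAAAAGG 10 to 1 bases before the start, a TGACG 149 to 145 bases before it and an EGR site, which 9.43% of all windows held. A further SRF start window, at chr6:43172146-43172445, held no match. The member that fell and the member with the smallest called rise were the ones with a CArG box in these windows. This describes 2 genes and depends on where the windows end. For FOS, which was higher, the well-studied SRF site lies upstream of the window, and FOSL1 had no window. A link between CArG boxes and the differences was not tested.

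**Figure D2:**
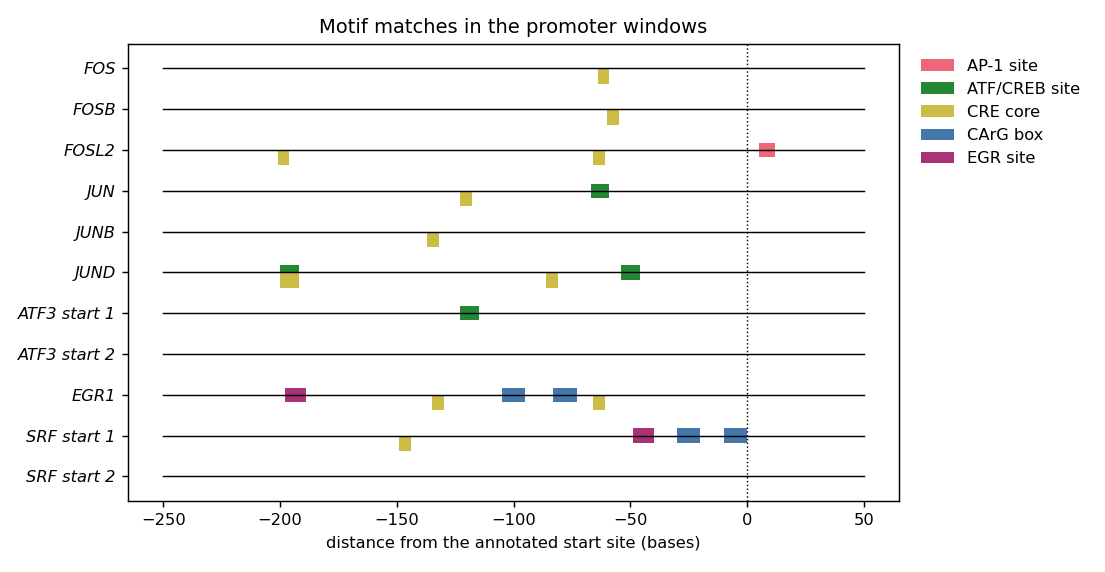
Motif matches by distance in bases from the annotated start site, 1 line per promoter window, with CRE cores drawn below the line. The windows of EGR1 and SRF hold the CArG matches, while matches to the CRE core occur in 8 of the 11 windows.

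**Figure D3:**
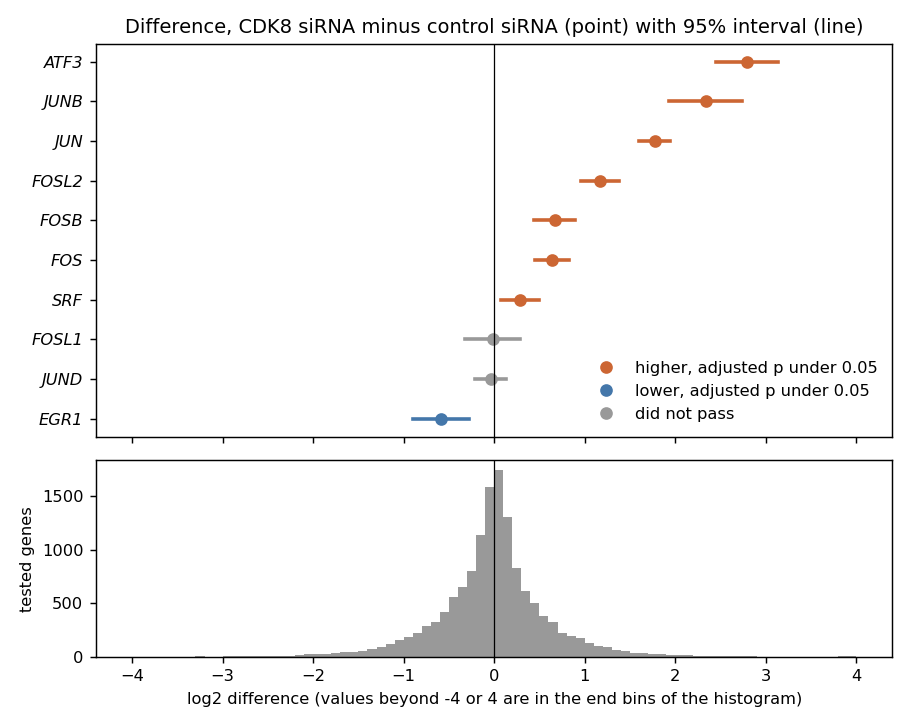
Upper panel, log2 difference (CDK8 siRNA minus control siRNA) of each gene as a point with its 95% interval as a line; lower panel, the same difference for all 13956 tested genes as a histogram. ATF3, JUNB and JUN stand in the right tail, FOSL1 and JUND at the centre, and EGR1 on the left side.

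Several genes followed the 3 members with the largest differences closely over the 4 arrays. Likeness was measured as the root mean square difference between log2 profiles after each gene's own mean was removed. Nearest to JUN were DUSP14, a phosphatase of MAP kinases (0.0109, with a difference between groups of 1.79 ± 0.07), and the noncoding transcript LINC00944 (0.0187). Nearest to JUNB were ZNF460, a zinc finger gene (0.0832), and DUSP5, a nuclear phosphatase of ERK (0.0960, difference 2.32 ± 0.13). Nearest to ATF3 were LURAP1L (0.0750) and SERINC1 (0.0928). LURAP1L measured 4.38 and 4.14 on the controls, with a mean under the filter level, and 6.80 and 7.03 on the treated arrays. It could thus be tested only through its rise. With 4 arrays in 2 groups this likeness mostly reflects a similar difference between the groups.

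Of the other bZIP factors that can pair with AP-1 proteins, 7 of 12 on the array passed the filter, and 3 were higher, 1 lower and 3 not called (median 0.12). Thus 4 of 7 were called, against 49.5% of all tested genes (23.1% higher and 26.4% lower), the background for each list below. The lists were chosen with earlier results of these data known, so their counts beside this background only describe them. CREB5, a relative of ATF2, measured 4.56 and 4.54 on the controls and 5.29 and 5.34 after CDK8 siRNA and rose 1.70-fold (0.77 ± 0.07, adjusted p = 5.16e-04). ATF2, a JUN partner and JNK substrate, fell 1.40-fold (-0.49 ± 0.08, adjusted p = 0.00476), a call lost if control array 1 (adjusted p = 0.0737) or control array 2 (adjusted p = 0.0796) was dropped. JDP2, which represses AP-1 sites, and the small MAF factor gene MAFF were 1.21-fold and 1.28-fold higher, at 0.28 ± 0.07 and 0.36 ± 0.09. Neither passed in a fit of 3 arrays, where adjusted p was 0.0516 to 0.126 for JDP2 and 0.0693 to 0.144 for MAFF, and MAFF also lost it with the replicate block (adjusted p = 0.0713) and JDP2 with median centring (adjusted p = 0.0623).

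The NAB corepressors, which bind EGR proteins, were both lower, as EGR1 was, and a link between these falls was not tested. NAB2 measured 7.10 and 7.06 on the controls and 6.42 and 6.32 on the treated arrays, a 1.64-fold fall (-0.71 ± 0.08, adjusted p = 8.68e-04). NAB1 fell 1.37-fold (-0.45 ± 0.09, adjusted p = 0.0104), a call lost on dropping control array 1 (adjusted p = 0.0976), control array 2 (adjusted p = 0.129) and treated array 1 (adjusted p = 0.0636). EGR3 (3.41 to 3.57) and EGR4 (4.18 to 4.38), named as the only other family members followed, had mean signals under the filter level. EGR2 was listed too but had no transcript cluster under its symbol alone, so it could not be followed. Of 10 tested genes described as EGR1 targets 7 were higher, 0 lower and 3 not called in limma (median 0.57), and 0 were lower at an unadjusted p under 0.05. PDGFB, a growth factor chain (1.91-fold, 0.94 ± 0.08), FGF2, a fibroblast growth factor (1.66-fold, 0.73 ± 0.08), ICAM1, a leukocyte adhesion receptor (2.40-fold, 1.27 ± 0.07), and the stress cytokine gene GDF15 (5.56-fold) rose. The 7 called became 4 if control array 1 or 2 was dropped.

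Of 10 tested activators that sit on immediate early promoters 2 were higher, 5 lower and 3 not called (median -0.29). MRTFB, an actin-regulated SRF cofactor, measured 11.06 and 10.97 on the controls and 9.81 and 10.04 on the treated arrays and fell 2.13-fold (-1.09 ± 0.10, adjusted p = 5.29e-04). Its paralog MRTFA was 1.35-fold higher (0.44 ± 0.07, adjusted p = 0.00448), a call lost on dropping control array 1 (adjusted p = 0.0557) or control array 2 (adjusted p = 0.0638). ELK1, the ETS factor that ERK phosphorylates on SRF-bound promoters, fell 1.55-fold (-0.63 ± 0.07, adjusted p = 0.00120). CREM, a CRE-binding modulator that also gives rise to inducible repressors, rose 1.85-fold (0.89 ± 0.09, adjusted p = 7.06e-04). The 5 lower calls became 2 if control array 1 or 2 was dropped, and the 2 higher calls became 1.

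Among 19 tested genes of the MAP kinase cascades 4 were higher, 8 lower and 7 not called (median -0.20). Thus 12 of 19 were called, against 49.5% of all tested genes. The kinase genes MAP3K1 and MAP3K5, which feed the JNK pathway, fell 1.77-fold (-0.83 ± 0.08, adjusted p = 5.91e-04) and 1.74-fold (-0.80 ± 0.07, adjusted p = 4.48e-04). MAPK9, encoding JNK2, fell 1.47-fold (-0.56 ± 0.07, adjusted p = 0.00161). MAPK8, encoding JNK1 and named after its value was seen, was 1.38-fold higher (0.47 ± 0.09, adjusted p = 0.00662), but not on dropping control array 1 (adjusted p = 0.0768), control array 2 (adjusted p = 0.0969) or treated array 2 (adjusted p = 0.0522). RPS6KA1, a kinase downstream of ERK, fell 1.42-fold (-0.51 ± 0.07, adjusted p = 0.00270), a call lost on dropping control array 1 (adjusted p = 0.0531) or control array 2 (adjusted p = 0.0542). The counts of 4 higher and 8 lower in limma became 0 and 3 if control array 1 or 2 was dropped (4 and 8, or 3 and 7, at an unadjusted p under 0.05), 2 and 6 on dropping treated array 1, and 0 and 5 on dropping treated array 2 (3 and 9 unadjusted). Arrays measure RNA only, so the activity of these kinases was not seen.

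Of 4 genes for ubiquitin ligase components that target AP-1 proteins, DET1, an adaptor of the COP1 ligase for JUN, fell 2.51-fold from 5.90 and 6.03 to 4.71 and 4.57 (-1.33 ± 0.09, adjusted p = 2.01e-04). These are values of its brighter cluster. The dimmer one, at 3.25 and 3.14 on the controls and 3.09 and 2.95 on the treated arrays, is under the filter level, so that DET1 was not tested when the dimmer cluster or the mean of both stood for the gene. COP1 itself stood at 0.09 ± 0.07 (adjusted p = 0.344), ITCH at 0.14 ± 0.07 (adjusted p = 0.167) and FBXW7 at -0.24 ± 0.08 (adjusted p = 0.0526). FBXW7 passed as lower with median centring (-0.32, adjusted p = 0.0227), quantile normalization (-0.25, adjusted p = 0.0489) and the stricter signal filter (-0.24, adjusted p = 0.0480).

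Of the other immediate early genes 35 of 37 tested were called, against 49.5% of all tested genes. This list too was chosen with earlier results of these data known, so its share above the background is no independent evidence. Of these 37, 27 were higher, 8 lower and 2 not called, with a median of 0.56, and 16 of the 27 rose at least 2-fold. CCN1, a matricellular gene controlled by SRF and YAP (14.5-fold), KLF6 and ZFP36, a zinc finger factor and an mRNA decay factor (11.6-fold and 11.2-fold), and GADD45B, a stress gene (4.30-fold), had the smallest p-values of the list. On dropping control array 2 the counts were 18 higher and 6 lower.

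Of 23 genes on the array that are described as AP-1 targets 12 passed the filter, of which 7 were higher, 2 lower and 3 not called (median 0.41). Because filtering was on the mean over both groups, a target without signal in control cells could be tested only if it rose. That holds for SPP1, osteopontin, which measured 4.15 and 4.26 on the controls, under the filter level, and 6.79 and 6.69 on the treated arrays; without it 6 of 11 were higher, with a median of 0.37. PLAUR, the urokinase receptor, measured 7.31 and 7.06 on the controls and 9.81 and 9.65 on the treated arrays, a 5.84-fold rise (2.55 ± 0.11, adjusted p = 7.05e-05). The neutrophil chemokine gene CXCL8 rose by 8.37 ± 0.12. DNMT1, the maintenance DNA methyltransferase, fell 2.59-fold (-1.38 ± 0.07, adjusted p = 1.07e-04). The matrix metalloproteinase genes MMP1, MMP3, MMP7, MMP9, MMP10 and MMP13 are textbook AP-1 targets, named although they were not tested in the main fit. They lay under the filter level in both groups, at 3.23 to 4.12. In the limma fit with no filter MMP13 was higher (0.325, adjusted p = 0.0152), at that low signal, and the others did not pass.

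Cytoskeletal targets of SRF and its MRTF cofactors were higher in 14 of 22 tested genes, lower in 1 and not called in 7 (median 0.47). VCL, vinculin of focal adhesions, measured 10.96 and 10.87 on the controls and 12.01 and 11.95 on the treated arrays (2.09-fold, 1.07 ± 0.08, adjusted p = 2.33e-04). MYH9, the heavy chain of non-muscle myosin, rose 2.42-fold (1.28 ± 0.08) and the matricellular gene CCN2 2.49-fold (1.32 ± 0.09). MYL9, a myosin light chain singled out for its size, rose 4.64-fold (2.21 ± 0.17, adjusted p = 2.91e-04). The 14 higher calls became 8 on dropping control array 1 and 9 on dropping control array 2. TAGLN, with a control mean of 4.05 under the filter level and a treated mean of 4.54, could likewise be tested only through its rise, and without it 13 of 21 were higher (median 0.45). CCN1 and CCN2 stand in this list and among the immediate early genes. Likewise TGFB1 and VEGFA, neither of them called, stand in both the AP-1 and the EGR1 target lists, so the counts of such lists share genes.

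**Figure D4:**
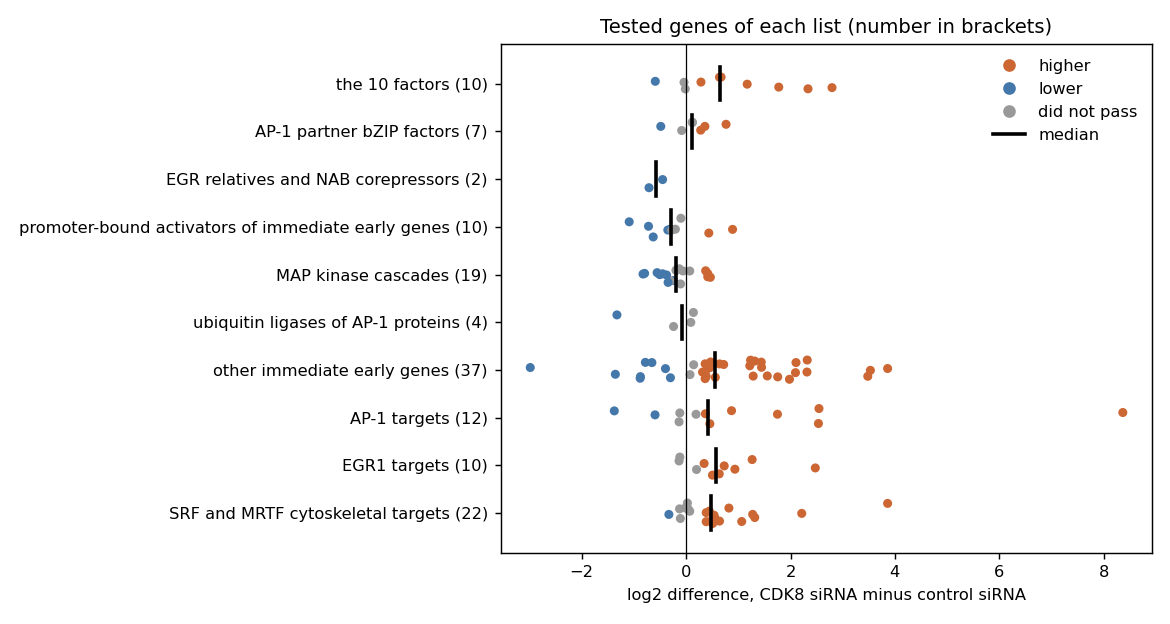
Log2 difference (CDK8 siRNA minus control siRNA) of each tested gene in each list, coloured by call, with a black bar at the list's median. Medians lie above 0 for the 10 factors, the AP-1 partner bZIP factors, the other immediate early genes and the 3 target lists. They lie below 0 for the EGR relatives and NAB corepressors, the promoter-bound activators, the MAP kinase cascades and the ubiquitin ligases.

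Across the 13 settings with a threshold of 0.05 in which they could be fitted, JUN, JUNB, ATF3 and FOSL2 passed in each, with highest adjusted p of 0.0271, 0.0299, 0.0271 and 0.0281. FOS passed in 12 of 12, the highest adjusted p being 0.0447. FOSB passed in 10 of 12, EGR1 in 10 of 13 and SRF in 7 of 13, and FOSL1 and JUND in 0 of 13.

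**Figure D5:**
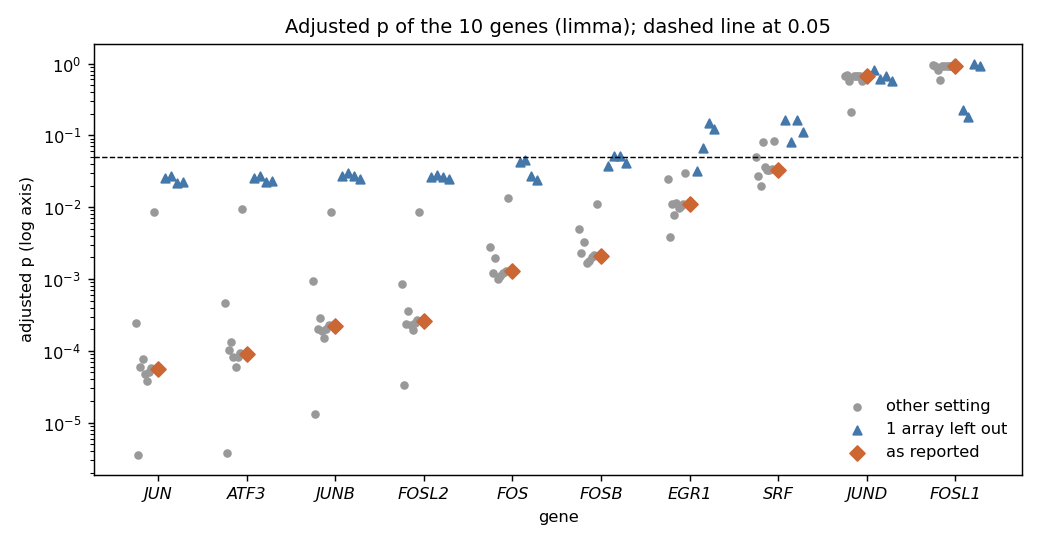
Adjusted p from limma on a log axis for each gene, as reported (diamond), with 1 array left out (triangles) and under the other settings (dots); the dashed line is 0.05. JUN, ATF3, JUNB, FOSL2 and FOS lie under the line in every setting, FOSB, EGR1 and SRF cross it when arrays are left out, and JUND and FOSL1 lie above it.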

How the data were processed

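RNA was isolated with TRIzol and made into biotin-labelled cDNA with the WT PLUS kit for 4 arrays, per the labels' protocols. The authors deposited log2 signals. Per the submitters' processing notes they used RMA and Affymetrix Expression Console, whose versions are, like the genome build, not given in the sources used here. The table held 70523 rows, of which 67528 were transcript clusters. Of these 23781 had 1 gene symbol in the platform annotation, and 306 symbols were updated through the RefSeq gene table of GRCh38.p14. The brightest cluster stood for a gene, and a mean signal of at least 4.28, the median cluster mean, was required for testing. Groups and replicate numbers came from the sample titles.

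The comparison used lmFit and eBayes of limma 3.58.1 (R 4.3.3) without covariates. P-values of 13956 genes were adjusted after Benjamini and Hochberg, and the fit was tested on simulated data. The number of arrays limits the precision, and the median standard error was 0.0832. The members and gene lists were chosen with earlier results of these data known. Genes named beside the members were up to 4 of each list with the smallest p and the 2 nearest profiles of the 3 members with the largest differences, and others are marked. Promoter windows and motif shares came from RefSeq on GRCh38.p14, which held 11 windows for 9 of the 10 members. Alternatives were other filters, normalizations, eBayes settings, cluster rules and thresholds, the replicate block and leaving out each array. Figures were drawn with matplotlib 3.10.9.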

Additional observations from a re-analysis of the deposited data

How the results depend on the processing

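The counts of called members, listed genes and all tested genes stayed within 1.5 times under the other filters, normalizations, eBayes settings and cluster rules, and at the threshold of 0.01 except that 0 members were then called lower (EGR1 had an unadjusted p of 0.00387 in limma). With 1 array left out, members called higher ranged from 5 to 6 and members called lower from 0 to 1 (also 0 to 1 at an unadjusted p under 0.05), listed genes called higher from 36 to 47 and lower from 15 to 20, and all tested genes called higher from 1377 to 2097 and lower from 1745 to 2414. These fits have fewer arrays. The titles give both groups the same replicate numbers, but nothing says that equal numbers share a culture or day, and the deviations of same-numbered arrays correlated with r = 0.121 across tested genes. With the replicate number as a block 6 members were called higher and 1 lower, and 2838 and 3300 of all tested genes. Signs turned for FOSL1, which ranged from -0.185 to 0.155 when single arrays were dropped, and for 2 markers that were not called, KRT8 with quantile normalization (-0.031), centred arrays (-0.030), the mean of its clusters (-0.195), its dimmest cluster (-0.435) and when single arrays were dropped (-0.135 to 0.225), and NKG7 with quantile normalization (-0.030), centred arrays (-0.045) and when single arrays were dropped (-0.040 to 0.100). The cause was not tested. Low signal limits what can be said of genes under the filter level.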

Other observations

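Within several immediate early families 1 gene was higher and a close relative lower after CDK8 siRNA. These pairs were picked after their values were seen and carry no test of the contrast between relatives. Of other relatives on the list of immediate early genes, KLF4, KLF10, IER2, IER3 and DUSP1 were higher and DUSP4 lower. DUSP2 and ZFP36L2 were not called. Of all tested genes 49.5% were called, 23.1% higher and 26.4% lower. Of the orphan nuclear receptor genes, NR4A1 measured 6.28 and 6.01 on the controls and 7.44 and 7.29 on the treated arrays (1.22 ± 0.11, adjusted p = 5.69e-04 in limma), while NR4A2 went from 9.27 and 9.10 to 7.80 and 7.86 (-1.36 ± 0.09, adjusted p = 1.76e-04). Of the ERK phosphatase genes, DUSP5 rose 4.98-fold and DUSP6 fell 7.92-fold. Among the zinc finger genes KLF6 rose 11.6-fold and KLF2 fell 1.57-fold (-0.66 ± 0.08, adjusted p = 0.00155). ZFP36 rose 11.2-fold, and its relative ZFP36L1 fell 1.83-fold on its brighter cluster (-0.88 ± 0.07, adjusted p = 3.43e-04), while its dimmer cluster measured 4.77 and 4.91 on the controls and 4.75 and 4.89 on the treated arrays. IER5 was 1.39-fold higher (0.47 ± 0.08) and IER5L 1.84-fold lower (-0.88 ± 0.14). IER5 did not pass once control array 1 (adjusted p = 0.0623) or control array 2 (adjusted p = 0.0756) was dropped, nor IER5L once treated array 1 (adjusted p = 0.0778) or treated array 2 (adjusted p = 0.0979) was dropped.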
